A study of Mus musculus with 4 samples.

Results

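Levels of 8 genes that mark Schwann cells and nerve roots (*Pmp22*, *Prx*, *Pmp2*, *Drp2*, *Ngfr*, *Cdh19*, *Dhh* and *Foxd3*) were examined in RNA from the lumbar spinal cord of male ICR mice, an outbred stock. The genes were chosen by name, without a threshold on a measured value, but with earlier results of these data known. All probes carrying these names on a 1-colour Agilent mouse array were taken. This gave 10 of the 39429 probes and 8 of the 27516 gene names on the array. All mice had the right sciatic nerve partially ligated (PSL) and were examined on day 7 after this injury, so uninjured mice are not part of the comparison. Mice labelled ADX+PSL had lost both adrenal glands, the source of corticosterone, and drank saline. Those labelled sham+PSL had had their adrenals exposed and left in place. RNA was taken at zeitgeber time 10 (ZT10), in the light phase, or at ZT22, in the dark phase. Each of the 4 conditions had 1 array, and all 4 arrays lay on 1 slide. The labels do not give the age of the mice, and the number of mice behind each RNA and the side of the cord are not given in the sources used here.

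Schwann cells form the myelin of peripheral nerves and of the spinal nerve roots, whereas oligodendrocytes form that of the spinal cord itself. A myelinating Schwann cell is held to its basal lamina by a dystroglycan complex that contains periaxin and dystrophin-related protein 2, it compacts its membranes with proteins of peripheral myelin, and it signals to the sheath around it by Desert hedgehog. After nerve injury, Schwann cells leave the myelinating state and express the low-affinity neurotrophin receptor instead. A slice of lumbar cord can carry cut ends of nerve roots and their sheaths on its surface.

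Levels are the authors' quantile-normalized intensities in arbitrary units. They were compared only within a probe, since probes differ in how strongly they bind. A probe was called measured on an array where the image software flagged it as well above background. The lowest level with this flag was 14.9 on the sham+PSL ZT10 array and 18.4 on that of ZT22, and 12.8 and 22.2 on the 2 ADX+PSL arrays at those times. Between 65.1% and 70.1% of all probes were well above background, and no spot was saturated. Of the 10 probes of the 8 genes, 9 probes of 7 genes were well above background on at least 1 array and 8 probes on all 4. Mice and slices differ too, so a gap between arrays holds their variation, and precision is limited by how few arrays there were. Pairs of levels are given with ZT10 before ZT22. The spot error given below is the error that the software assigns to a spot, on the log2 scale, and covers the measurement of the spot alone.

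The tissue label was borne out by 8 of 8 genes typical of spinal cord, among them the glycine transporter *Slc6a5* and the motor neuron enzyme *Chat*, which were well above background on all 4 arrays. Of the 8 genes, *Prx*, *Pmp22*, *Drp2*, *Ngfr*, *Cdh19* and *Foxd3* were measured on all 4 arrays, *Dhh* on 3 and *Pmp2* on none. *Pmp2*, the fatty acid-binding protein of peripheral myelin, had levels of 11.3 and 7.29 on the sham+PSL arrays and 3.63 and 3.40 on the ADX+PSL arrays. *Egr2*, the transcription factor of the myelinating state, had the flag on the 2 sham+PSL arrays alone. Since other cells of the cord express several of these genes, the signal is not taken as that of Schwann cells.

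*Prx*, which encodes periaxin, and *Dhh*, which encodes Desert hedgehog, were the members furthest below the sham+PSL levels on the ADX+PSL arrays. Their RefSeq promoters are shown for this reason, as the 250 bases before the start site in the build GRCm38.p6, read 5′ to 3′ on the strand of the gene. The *Prx* stretch lies at chr7:27499074-27499323 on the plus strand and the *Dhh* stretch at chr15:98898541-98898790 on the minus strand. Capitals mark a match to the early growth response core.
*Prx*: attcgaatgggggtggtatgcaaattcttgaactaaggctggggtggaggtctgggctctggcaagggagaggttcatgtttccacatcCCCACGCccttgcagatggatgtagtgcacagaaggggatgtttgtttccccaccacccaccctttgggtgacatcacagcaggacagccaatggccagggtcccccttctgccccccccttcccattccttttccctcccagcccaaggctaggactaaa
*Dhh*: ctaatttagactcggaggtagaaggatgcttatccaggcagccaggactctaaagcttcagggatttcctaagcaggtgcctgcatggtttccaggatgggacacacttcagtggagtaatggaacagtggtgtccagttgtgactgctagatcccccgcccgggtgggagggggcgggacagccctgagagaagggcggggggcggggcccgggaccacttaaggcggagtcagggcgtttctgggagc
Short words were searched on both strands of these stretches, and were chosen after the sequences were seen. They were GCGTGGG, the core bound by early growth response factors such as EGR2, ACAAAG, a core bound by SOX factors, and TGTTCT, the half-site of the glucocorticoid receptor. *Prx* held GCGTGGG once, on the opposite strand, at positions -161 to -155 from the start site, a word found in 4.30% of 32851 mouse promoters of this length. *Dhh* held none of the words. ACAAAG stood in 16.5% and TGTTCT in 16.1% of all promoters. RefSeq promoters were matched for 5 of the 8 genes, with 8 start sites between them, and *Foxd3* also held GCGTGGG once, at -18 to -12. A match of letters is only a description of the sequence.

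*Prx* is probed by 1 probe at chr7:28304999-28305058 on the plus strand (mm9, the build of the deposited probe annotation). Its level was 466 and 247 on the sham+PSL arrays and 40.9 and 36.3 on the ADX+PSL arrays. The ADX+PSL arrays lay far below both sham+PSL arrays, and the gap between the nearest arrays of the operations was 2.59 on the log2 scale against a spot error of 0.23. The mean level was 8.80-fold lower in ADX+PSL, a log2 difference of -3.14 (limma's moderated SE 0.25, 2 arrays per operation). In limma's additive fit of operation and time point over all 28845 probes measured on at least 1 array, p was 0.00128 and the Benjamini-Hochberg adjusted p was 0.623, so that the difference did not pass. This fit has 1 residual degree of freedom.

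*Dhh*, probed at chr15:98723465-98723524 on the minus strand (mm9), had levels of 72.1 and 48.4 on the sham+PSL arrays and 18.8 and 20.05 on the ADX+PSL arrays. The last of these was not well above background. Both ADX+PSL levels lay below both sham+PSL levels. The limma fit takes the last level as deposited and gave a log2 difference of -1.61 (SE 0.23, adjusted p 0.699), which is therefore no measured size. At ZT10, where both arrays measured it, *Dhh* was 3.85-fold lower in ADX+PSL. *Dhh* is the hedgehog ligand that Schwann cells send to the perineurium, the sheath of a nerve fascicle.

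*Ngfr*, the low-affinity neurotrophin receptor p75 of immature and injured Schwann cells and of some neurons, is printed in 10 spots per array at chr11:95430211-95430270 on the minus strand (mm9). Its level was 525 and 649.9 on the sham+PSL arrays and 259 and 419 on the ADX+PSL arrays. The groups did not overlap, and ADX+PSL at ZT10 was the lowest array. The 10 spots of an array had an SD of 0.042, 0.046, 0.129 and 0.044 on the log2 scale on the sham+PSL and ADX+PSL arrays. These SDs describe repeated spots of 1 RNA and not the spread between mice. The gap between operations was 0.32 on the log2 scale against a spot error of 0.20. The mean was 1.77-fold lower in ADX+PSL (log2 difference -0.83, SE 0.16, limma adjusted p 0.764).

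*Cdh19*, a cadherin of the Schwann cell lineage, had levels of 116 and 134 on the sham+PSL arrays and 95.2 and 112 on the ADX+PSL arrays (chr1:112785846-112785905, minus strand, mm9). Both ADX+PSL levels were below both sham+PSL levels, but the gap of 0.06 on the log2 scale was smaller than its spot error of 0.21. The log2 difference was -0.28 (SE 0.12, limma adjusted p 0.817).

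*Pmp22*, a tetraspan protein of compact peripheral myelin that other cell types also express, is covered by 2 probes on chromosome 11, at chr11:62972989-62973048 and chr11:62971862-62971921 (plus strand, mm9). The first had levels of 7585 and 8817 on the sham+PSL arrays and 6577 and 8163 on the ADX+PSL arrays. The second had levels of 1170.5 and 1324 against 1009 and 1211. On both probes the operations overlapped, and the log2 differences were -0.16 and -0.17 (limma adjusted p 0.880 and 0.866).

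*Drp2*, the dystrophin-related partner of periaxin, is also covered by 2 probes, at chrX:130987814-130987873 and chrX:130987180-130987239 (plus strand, mm9). The first had levels of 689.8 and 719 on the sham+PSL arrays and 782 and 795 on the ADX+PSL arrays. The second had levels of 151 and 138 on the sham+PSL arrays and 160.5 and 159.9 on the ADX+PSL arrays. Both probes were higher on both ADX+PSL arrays, opposite to *Prx*, but the gaps of 0.12 and 0.08 on the log2 scale were smaller than the spot errors of 0.20 and 0.21. The log2 differences were 0.16 and 0.15 (limma adjusted p 0.871 and 0.897).

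*Foxd3*, a transcription factor of the neural crest and of glial precursors, had levels of 31.6 and 39.7 on the sham+PSL arrays and 35.6 and 37.2 on the ADX+PSL arrays (chr4:99325170-99325229, plus strand, mm9). The ADX+PSL levels lay between the sham+PSL levels, and the log2 difference was 0.04 (limma adjusted p 0.986).

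**Figure D1:**
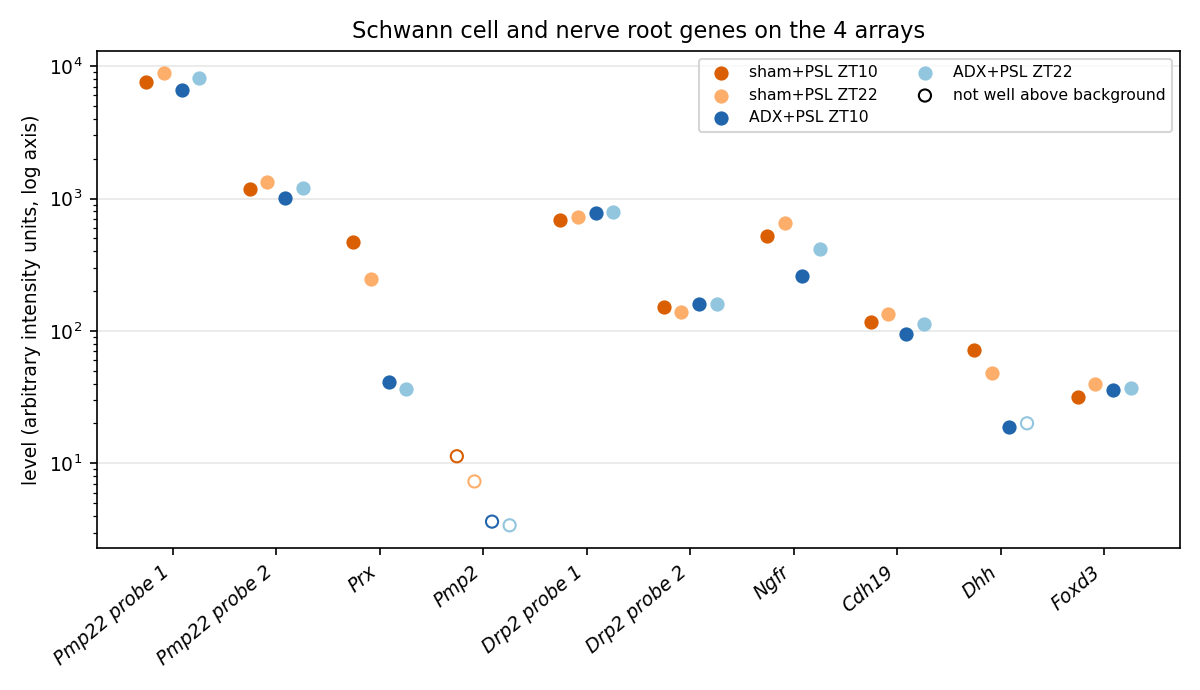
Level of each probe of the 8 genes on the 4 arrays, on a log scale in arbitrary units, with open symbols where the probe was not well above background. *Prx* lay at 466 and 247 on the sham+PSL arrays against 40.9 and 36.3 on the ADX+PSL arrays, whereas the 2 probes of *Pmp22* and of *Drp2* lay close together across arrays.

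Counted over the members, 0 of the 7 measured genes passed an adjusted p of 0.05 between the operations in limma's additive fit, as did 0 of all 28845 probes (0.00% called). At an unadjusted p under 0.05 there were 3 members, *Prx*, *Dhh* and *Ngfr*, against 1803 probes or 6.25% of those tested, with *Dhh* resting on its level near background. An exact permutation test of 2 arrays against 2 cannot go below a two-sided p of 0.333. Both ADX+PSL arrays lay below both sham+PSL arrays on 4 of the 9 probes measured on any array (*Prx*, *Dhh*, *Ngfr* and *Cdh19*), where 16.3% of all tested probes did. Of the 6 genes measured on all 4 arrays, 3 lay below (*Prx*, *Ngfr* and *Cdh19*), and 16.1% of the 25012 probes measured on all arrays did so. The ADX+PSL arrays lay above on 2 probes, both of *Drp2*, where 19.0% of all tested probes did (18.9% of those measured on all arrays). A mean ratio of 0.5 or less together with lower levels on both arrays was seen for *Prx* and for *Dhh*, whose value at ZT10 and bound at ZT22 both exceed a 2-fold difference, and for 1.61% of all tested probes. The median log2 difference of the 6 genes measured on all arrays, by the brightest probe of each, was -0.22, and that of all such probes was 0.005. As far below as *Prx* were 20 probes, or 0.0693% of those tested. For *Ngfr* and *Cdh19* the shares were 1.96% and 6.93%. Since the genes were chosen with earlier results known, the member counts beside these shares are a description and no test. In bulk RNA, fewer cells of a type in the slice and less RNA per cell cannot be told apart.

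**Figure D2:**
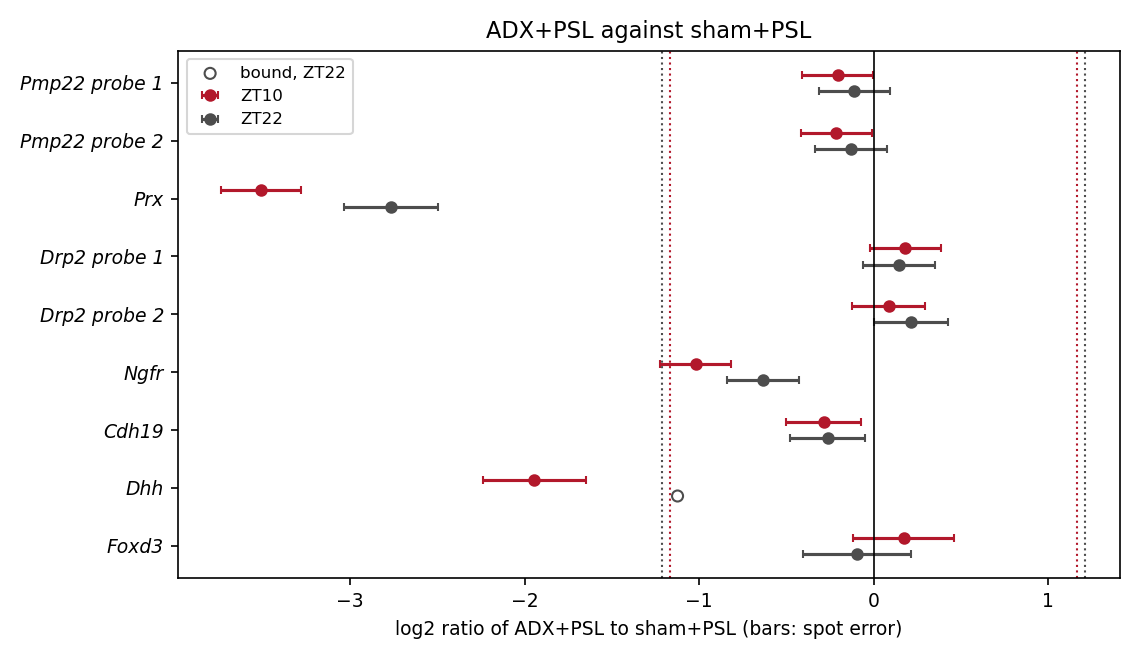
Log2 difference of ADX+PSL against sham+PSL for each measured probe of the genes at each time point, with bars for the spot error. The open circle is the bound for *Dhh* at ZT22, and dotted lines mark the Z-score limits. *Prx* lies at -3.51 and -2.77 and *Dhh* at -1.94 at ZT10, whereas *Foxd3* lies near 0.

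The operations were also set against each other at each time point, 1 array against 1, without a test. A probe was called by the limits of the study's methods, which are at least a 2-fold ratio in either direction together with a Z-score beyond 2, and only where the brighter array had it well above background. At ZT10, 2 of the 7 genes were called lower in ADX+PSL and 0 higher, where 2.42% of the probes were called lower and 2.09% higher. *Prx* was 11.4-fold lower (Z-score -6.03) and *Dhh* 3.85-fold lower (Z-score -3.34). *Ngfr* was 2.03-fold lower with a Z-score of -1.75, which missed the limit. At ZT22 *Prx* was called lower and 0 genes higher, where 2.09% of the probes were called lower and 1.56% higher. *Prx* was 6.80-fold lower (Z-score -4.56). *Dhh*, not well above background on the ADX+PSL array, was at least 2.18-fold lower, a bound against the lowest level called well above background there. It passed the limits with its deposited level (Z-score -2.09) but not with this bound, since the Z-score limit corresponds to a 2.32-fold difference. The 2 time points share no array, so that each gives its own value for the operation.

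The raw mean signal of the spots lacks the software's background correction and detrending. With it, *Prx* was 3.71-fold lower between the operations and the fitted log2 difference of *Dhh* was -0.54. With normexp background correction and an offset of 50, the log2 differences were -2.01 for *Prx* and -0.58 for *Dhh*. Under either alternative *Dhh* was not called at either time point. The adjusted p of *Prx* ranged from 0.010 with an intensity trend in limma's fit to 0.864 without a filter on dim probes, and was 0.042 where probes had to be measured on all 4 arrays.

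Between the time points, none of the 7 measured genes was called in either operation. In sham+PSL, 2.19% of the probes were called higher and 2.03% lower at ZT10, and in ADX+PSL 2.06% and 1.66%. In sham+PSL the *Prx* level of ZT10 was 1.89-fold that of ZT22 (Z-score 1.54, under the limit), and its log2 difference in ADX+PSL was 0.17. *Dhh* had a log2 difference of 0.58 under sham+PSL, and no difference is given under ADX+PSL, where 1 of its levels was not well above background. *Ngfr* was lower at ZT10 than at ZT22 in both operations, with log2 differences of -0.31 under sham+PSL and -0.69 under ADX+PSL. In limma's additive fit, 0 of the 7 genes and 0 of all probes (0.00%) passed an adjusted p of 0.05 for time, and 1420 probes (4.92%) had an unadjusted p under 0.05. Whether time effects differed between operations could not be tested with 1 array per condition.

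**Figure D3:**
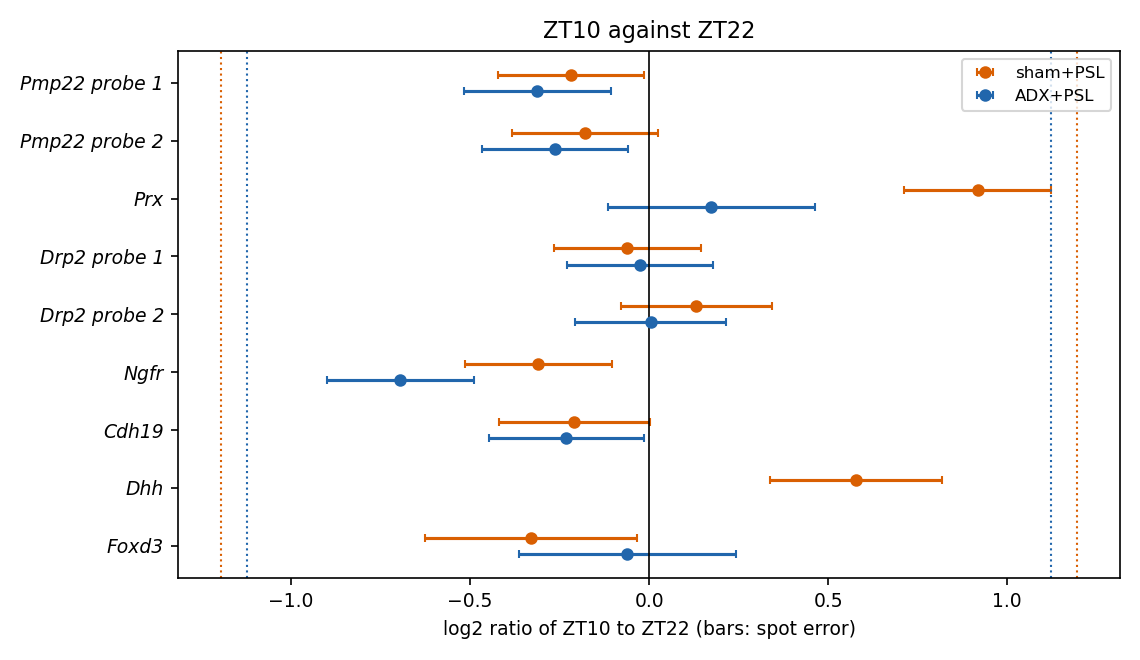
Log2 difference of ZT10 against ZT22 for each measured probe under either operation, with bars for the spot error. Dotted lines mark the Z-score limits, and *Dhh* is not drawn for ADX+PSL, where it was measured on 1 array alone. None of the genes passed the limits, and *Prx* in sham+PSL had the largest difference, 0.92.

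Genes that belong with the members were read from lists, and counts and medians cover the genes measured on all 4 arrays. Beside the counts of these lists and those below stand the shares of all probes so measured, 16.1% lower and 18.9% higher on both ADX+PSL arrays. Of 8 other Schwann cell genes, 4 were so measured, and 2 of these (*Gldn* and *Ncmap*) were lower on both ADX+PSL arrays and 0 higher, with a median log2 difference of -0.15. *Egr2* had levels of 31.1 and 37.4 on the sham+PSL arrays and 9.77 and 10.4 on the ADX+PSL arrays, where it was not well above background, so that it was at least 2.02-fold lower, outside the count. *Gldn*, which encodes gliomedin of the node of Ranvier, had levels of 190.3 and 172 on the sham+PSL arrays and 119 and 103 on the ADX+PSL arrays, a mean 1.63-fold lower. *Ncmap*, a myelin protein of peripheral nerve named *A330049M08Rik* on the array, had levels of 1047 and 879 against 859 and 789. The nearest levels, 879 in sham+PSL at ZT22 and 859 in ADX+PSL at ZT10, lay close together, so its place in the count rests on a small gap. *Cldn19*, *Scn7a* and *Col28a1* were not well above background on any array.

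Of 11 myelin genes that Schwann cells and oligodendrocytes share, among them *Sox10*, *Mag* and *Cnp*, 0 were lower and 0 higher on both ADX+PSL arrays, with a median log2 difference of -0.06. Of 10 oligodendrocyte genes, 0 were lower and 2 higher, with a median of -0.04. Of 8 genes of the repair Schwann cell, 5 were measured on all arrays, and 0 were lower and 0 higher, with a median of -0.09. No gene of any list passed an adjusted p of 0.05 in limma's fit.

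Of the partners of periaxin and *Drp2*, 11 genes of the dystroglycan complex and its laminin ligands were measured on all 4 arrays. On both ADX+PSL arrays 5 were lower and 2 higher, with a median log2 difference of -0.16. *Lama2*, the laminin chain of the Schwann cell basal lamina, had levels of 804 and 832 on the sham+PSL arrays and 504 and 541 on the ADX+PSL arrays, whereas *Dag1*, dystroglycan itself, had 1346 and 1665 against 1453 and 1512. Of 9 neurotrophin ligands and receptors around *Ngfr*, 7 were measured, 0 were lower and 1 was higher, with a median of 0.07. Of 10 hedgehog receptors and targets, 2 were lower (*Gli1* and *Gas1*) and 1 higher, with a median of -0.03. *Gli1*, a transcriptional target of hedgehog signalling, had levels of 653 and 649 on the sham+PSL arrays and 553 and 406 on the ADX+PSL arrays.

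Markers of the sheaths and of other cells were set beside these values. Of 11 meningeal fibroblast genes, 10 were measured on all arrays, and 10 lay lower on both ADX+PSL arrays, with a median log2 difference of -1.77. The 11 genes had summed levels of 18937 and 16741 in sham+PSL against 5838 and 6057 in ADX+PSL. Of 4 perineurial genes 3 were measured, and 1 was lower and 0 higher, with a median of -0.49. The lower one, *Moxd1*, had levels of 424 and 406 on the sham+PSL arrays and 89.6 and 65.3 on the ADX+PSL arrays. Of 7 genes of dorsal root ganglion neurons 3 were measured on all arrays, 1 was lower and 1 higher, with a median of -0.03. *Avil*, *Scn10a* and *Mrgprd* were not well above background on any array. The meningeal levels moved with *Prx* and *Dhh* between the same arrays, and their part in the differences of these genes was not tested. The summed level of the 7 fast skeletal muscle genes measured on any array was 2745 in sham+PSL at ZT10 and between 341 and 421 on the other arrays, and all 6 red blood cell genes were called higher in sham+PSL at ZT10 than at ZT22. These moved with the time difference of *Prx* in sham+PSL, and their part was not tested either. The median log2 difference between operations was -1.64 for the 7 muscle genes measured on any array, with -2.78 at ZT10 and -0.01 at ZT22. For the 6 red blood cell genes it was 0.93, with -0.51 at ZT10 and 2.43 at ZT22, so the sign differed between time points. Of these 6, 0 were lower and 0 higher on both ADX+PSL arrays. The median was -0.29 for microglial and -0.05 for astrocyte genes.

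**Figure D4:**
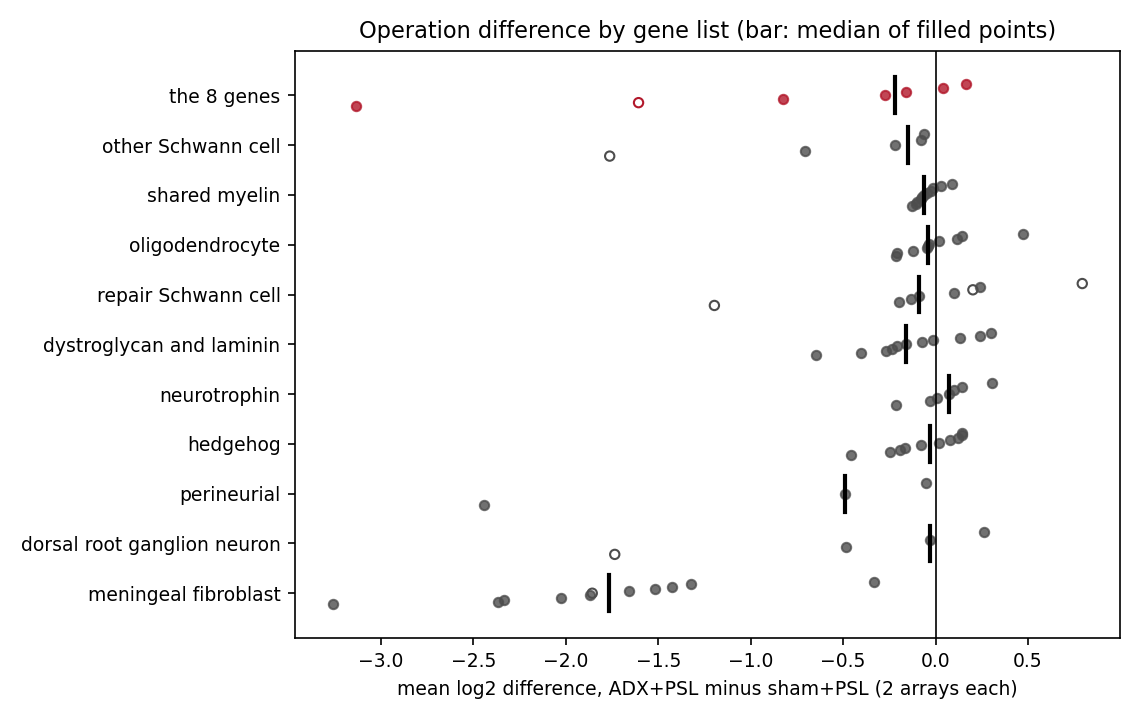
Log2 difference of ADX+PSL against sham+PSL for each measured gene of the lists, filled where it was measured on all 4 arrays and open otherwise, where the position is no measured size. Bars are medians of the filled points. The meningeal fibroblast genes lie lowest with a median of -1.77, the other Schwann cell genes at -0.15, and the shared myelin and oligodendrocyte genes near 0.

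The genes most like *Prx* and *Ngfr* over the 4 arrays were sought among 19214 probes with a gene name well above background on all 4, by the distance between log2 levels centred on their mean. *Prx* and *Ngfr* were the members measured on all 4 arrays that had a range of at least 1 on the log2 scale. Nearest to *Prx* were *Mfap5* (distance 0.41) and *Mfap4* (0.64), microfibril-associated proteins of the extracellular matrix, and *Ogn* (0.71), a proteoglycan that is also on the meningeal list. *Mfap5* had levels of 527 and 261 on the sham+PSL arrays and 37.6 and 28.4 on the ADX+PSL arrays. *Ngfr* was nearest to *Tfpi* (distance 0.09), an inhibitor of coagulation, to *Lce1c* (0.12) and to *Arl5c* (0.14). *Tfpi* had levels of 109 and 147 on the sham+PSL arrays and 57.0 and 91.9 on the ADX+PSL arrays. With 4 arrays, a close pattern describes these arrays and no more.

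**Figure D5:**
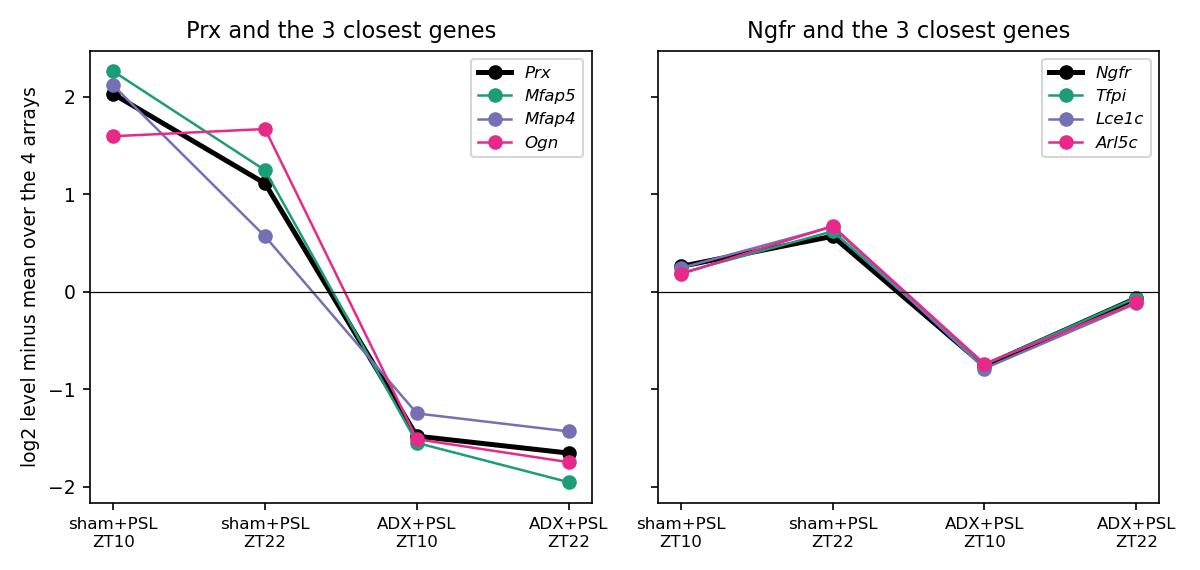
Log2 levels centred on the mean over the 4 arrays for *Prx* and *Ngfr*, each with the 3 genes of nearest pattern, where lines only join the points of a gene. The *Prx* group is high on both sham+PSL arrays and low on both ADX+PSL arrays, and the *Ngfr* group is lowest in ADX+PSL at ZT10.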

How the data were processed

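RNA of 4 conditions was hybridized to 1 array each. The authors deposited per-spot intensities from Agilent Feature Extraction (version 10.7.1.1 per the file headers, 9.5.1.1 per the labels), which are background-corrected and detrended within an array, with flags, and a linear intensity table in which quantile normalization had made the 4 arrays alike. The deposited table was log2-transformed and used for all levels. Probe names, flags and mm9 coordinates came from the spot files (44397 spots, of which 1377 were controls). All sorted columns of the table were equal within 0.001 on the log2 scale.

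Operation and time entered limma 3.58.1 as additive terms (R 4.3.3), with Benjamini-Hochberg adjustment. Other steps used Python 3.11.15. The Z-score, which the methods do not define, was the log2 ratio minus its mean over its SD over all probes, and Z-scores of 2 corresponded to ratios between 2.18 and 2.32. A bound was taken against the lowest level well above background on that array. The genes, lists and alternatives were chosen with earlier results of these data known. Named are the 8 genes, examples of the lists, and the 3 nearest patterns of members ranging over at least 1 on the log2 scale. Of the steps, only limma's fit of the operation was tested on simulated data, which held no time effect. Alternatives covered signal, normalization, filter, fit and left-out arrays. Of the other Schwann cell genes, 1 is not reported here.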

Additional observations from a re-analysis of the deposited data

How the results depend on the processing

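No paired analysis was possible because each condition had 1 array, so that fewer than 2 replicate numbers were shared. The reported fit compares the operations within each time point, and the fit without the time term is its alternative. The number of probes past an adjusted p of 0.05 between operations was 0 in the reported fit, 10 with normexp background correction, 10 with the mean signal, 13 over probes well above background on all 4 arrays, 39 with an intensity trend, 6 without the time term and 0 with any array left out. For time the counts were 9, 8, 11 and 14 under the first 4 of these. *Prx* was the 1 member to pass, with the filter on all 4 arrays (adjusted p 0.042) and with the trend (0.010). Over the alternatives the log2 difference of *Prx* ran from -3.60 to -1.89, that of *Dhh* from -1.90 to -0.54 and that of *Ngfr* from -1.17 to -0.48, each below 0 throughout. Leaving an array out could not change these signs, since both ADX+PSL levels lay below both sham+PSL levels. The operation fit with an array left out has no time term, so its difference also holds part of the time difference. The median over the members was -0.28 over the 7 measured on any array and -0.55 without a filter, and with an array left out it ran from -0.39 to -0.16. The number of member genes with all ADX+PSL levels lowest was 4 as reported, 3 without normalization, with normexp, with the mean signal and with the filter on all 4 arrays, 5 without a filter, and 4 to 6 with an array left out, which makes separation easier by construction. Over all probes the share was 16.3% as reported and 16.1% with the filter on all 4 arrays. It is not given for the others, so the member counts there cannot be read against a share. *Foxd3* ran from -0.13 to 0.20 with an array left out. The time effect with an array left out has no operation term and so holds the operation difference: it ran from -1.21 to 2.30 for *Prx*, from -0.73 to 1.21 for *Dhh*, from -1.01 to 0.0078 for *Ngfr* and from -0.13 to 0.048 for *Drp2*, which was 0.013 as the mean of its probes. Counts past the ratio and Z-score limits shrank with normexp, with the mean signal and over probes on all 4 arrays. In sham+PSL they were 141, 126 and 117 higher and 166, 146 and 159 lower at ZT10, and in ADX+PSL 110, 94 and 87 higher and 108, 90 and 155 lower. Between operations at ZT10 they were 131 and 111 higher and 173 and 160 lower with normexp and the mean signal, and at ZT22 101 and 86 higher and 178 and 157 lower. With Z-scores in 20 bins of level, 331 were higher at ZT10 in ADX+PSL and 349 higher between operations at ZT10. With normexp and with the mean signal 1 member gene, *Prx*, was called lower between operations at each time point. With bins 1 member was called lower at ZT22, where 472 of all probes were called lower, against 561 as reported. At ZT10, 3 members were called lower with bins and with the ratio limit alone, against 2 as reported. Over all probes the counts at ZT10 were 499 with bins and 841 with the ratio limit alone, against 687 as reported. The cause was not tested. Probes near background, such as those of *Dhh*, *Foxd3* and *Egr2*, limit what can be compared.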
